A study of Mus musculus with 172 samples.

Results

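Metallothioneins are small cysteine-rich proteins that bind zinc and copper. The 3 genes described here are *Mt1*, *Mt2* and *Mt3*, followed by name through 4 tables of expression in cortex and liver. Values are log2 CPM, reads of a gene scaled to library size and put on a log2 scale. All 3 genes were listed among the 14896 genes of cortex, and *Mt1* and *Mt2* were also listed among the 14107 genes of liver, out of 16308 genes listed in either tissue. *Mt3* was not listed in liver and *Mt4*, the remaining gene of the cluster, was listed in neither tissue.

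The study addressed how mouse lines of differing genotype respond to lost sleep. BXD lines are inbred lines descended from a cross of C57BL/6J (B6) and DBA/2J (D2) mice, so that each carries its own mixture of both parental genomes. Male mice aged 11 to 14 weeks were either left to sleep (Ctr) or sleep deprived for 6 h from light onset by gentle handling (SD), and both groups were killed at the same time of day, 6 h after light onset. Each library is a pool of RNA from 3 mice of one line, with fewer mice for BXD79, BXD85 and BXD101, so the spread among mice within a pool was not measured. The comparisons rest on 39 pools per condition and tissue, namely 33 BXD/RwwJ lines, 2 pools of B6, 2 pools of D2 and the 2 hybrid pools BD-F1 and DB-F1. Another 4 BXD/TyJ pools per condition and tissue were read apart. None of the lines carries an engineered allele.

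*Mt1* and *Mt2* are made in most tissues, and their transcription rises with zinc, which acts through the metal-responsive transcription factor MTF1, and with glucocorticoids, the hormones of the stress response. Liver is a main site of this induction. *Mt3* is made mainly in brain, where astrocytes and neurons carry it, and is known to respond little to metals or glucocorticoids. The proteins buffer free zinc, hold copper and scavenge oxidants.

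The genes lie head to tail on the plus strand of chromosome 8. In mm9, the build used for the alignment, GENCODE vM1 places *Mt3* at chr8:96676507-96678048, *Mt2* at chr8:96696518-96697467 and *Mt1* at chr8:96702989-96704225, each with 3 exons. *Mt4* lies upstream of *Mt3*, and the 4 genes span 43122 bases. The transcripts with 3 exons measure 540 bases in *Mt1*, 556 in *Mt2* and 538 in *Mt3*, and no pair of them shared a run of 30 bases. The longest match of *Mt2* elsewhere in the genome covered 388 bases at 87.9% identity, and the longest of *Mt1* covered 223 bases at 80.3% identity. No run of 100 bases, the read length, was shared between members either.

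The promoter windows are shown because the members differ in the metal response element, the short motif bound by MTF1. Each window runs from 250 bases before the RefSeq transcription start to 50 bases from it, and the sequences are from RefSeq (GRCm38.p6), located here in mm9 by an exact match at chr8:96702739-96703038 for *Mt1*, chr8:96696268-96696567 for *Mt2* and chr8:96676257-96676556 for *Mt3*. Capitals mark each match to the core of the element (TGCACNC or TGCGCNC on either strand).
Mt1: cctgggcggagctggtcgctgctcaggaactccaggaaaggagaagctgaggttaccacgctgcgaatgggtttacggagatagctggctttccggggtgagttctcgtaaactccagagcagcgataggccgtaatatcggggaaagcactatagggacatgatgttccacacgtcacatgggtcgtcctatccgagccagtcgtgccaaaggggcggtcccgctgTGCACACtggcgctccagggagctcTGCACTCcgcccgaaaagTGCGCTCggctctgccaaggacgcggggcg
Mt2: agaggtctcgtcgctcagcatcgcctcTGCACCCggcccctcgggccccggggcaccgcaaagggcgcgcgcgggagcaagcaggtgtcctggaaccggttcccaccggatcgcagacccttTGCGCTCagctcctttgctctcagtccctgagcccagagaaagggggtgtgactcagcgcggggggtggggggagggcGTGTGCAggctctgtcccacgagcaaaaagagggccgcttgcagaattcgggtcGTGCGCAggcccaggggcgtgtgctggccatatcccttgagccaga
Mt3: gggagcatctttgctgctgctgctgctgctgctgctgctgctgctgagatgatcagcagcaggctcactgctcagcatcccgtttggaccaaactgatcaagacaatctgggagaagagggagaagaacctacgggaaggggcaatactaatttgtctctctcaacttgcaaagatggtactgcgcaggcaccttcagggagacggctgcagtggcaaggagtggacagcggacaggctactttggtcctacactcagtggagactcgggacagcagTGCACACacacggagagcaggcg

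The window of *Mt1* held 3 matches, that of *Mt2* held 4 and that of *Mt3* held 1. Of 32851 mouse promoter windows of the same length, 25.7% held at least 1 match, 1.97% held 3 or more and 0.517% held 4 or more. The window of *Mt2* also held 1 match to the antioxidant response element (TGACNNNGC, found in 12.4% of windows), and those of *Mt1* and *Mt3* held none. GENCODE vM1 also lists another *Mt1* transcript, with 2 exons, that starts at chr8:96703111, past the end of the *Mt1* window. The bases just before that start were not searched. No window held TGTTCT, a short motif bound by the glucocorticoid receptor, which 19.0% of windows held. A match in these letters is a description and does not show that a factor was bound. Motifs were not searched outside the windows, so a window without a match does not show that the gene lacks the element.

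Cortex libraries held 18995492 to 28998853 counted reads and liver libraries 4681101 to 8269401. In cortex the members were counted with many reads, 1341 to 3365 per library for *Mt1*, 520 to 2248 for *Mt2* and 1796 to 3422 for *Mt3*. In liver *Mt1* was counted with 62 to 491 reads and *Mt2* with 20 to 412. The tissue labels were checked against markers. All 9 neuron and all 10 astrocyte markers were listed in cortex, and 6 of the 8 hepatocyte markers were not. The other two, *Cps1* and *Ttr*, the latter also a choroid plexus marker, summed to at most 380.5 CPM in a cortex library. All 8 hepatocyte markers were listed in liver, where 7 of the 9 neuron markers were not. Of the 10 astrocyte markers 8 were also listed in liver, with a median summed level of 1323 CPM in Ctr.

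Reads per base bear on the liver values. Per exonic base, *Alb* was the most densely read liver gene. It encodes serum albumin, the most abundant plasma protein. It was counted with 3477 to 3819 reads in Ctr libraries and 3514 to 3807 in SD libraries although library totals differed much more. This is a median of 1.78 reads per exonic base in Ctr and 1.77 in SD, the highest median of the 13218 liver genes with a known length. In cortex the highest median was 44.7 reads per base in Ctr, and 1115 genes exceeded 1 read per base against 113 in liver. *Mt1* reached at most 0.898 reads per base in Ctr livers and 0.909 in SD livers, and *Mt2* at most 0.701 and 0.741. In cortex the medians of *Mt1* were 3.07 and 3.89. Whether duplicate reads were removed before counting is not given in the sources used here. Such a removal lowers high counts more than low ones, and so would make high liver levels and liver fold changes read too small. Its part in the liver values was not tested.

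**Figure D1:**
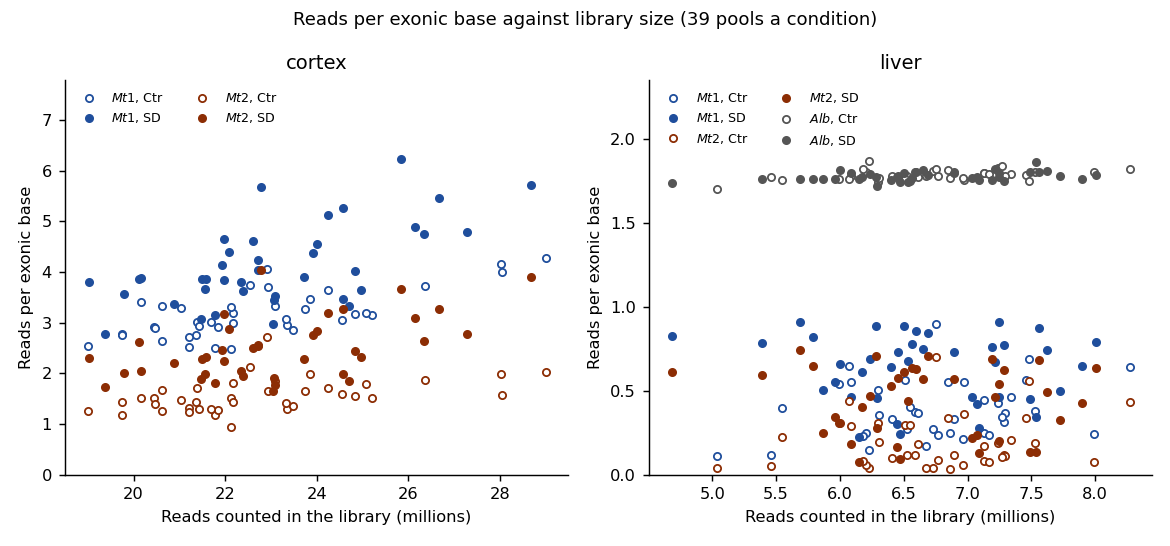
Reads per exonic base (vertical axis) of *Mt1*, *Mt2* and, in liver, *Alb* against library size (horizontal axis). Each point is 1 of 39 pools a condition, open for Ctr and filled for SD. *Alb* stays between 1.70 and 1.87 reads per base in all liver libraries, while *Mt1* in cortex lies between 2.48 and 6.23.

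Levels of the members were compared only per exonic length and within a tissue, as the tissues were normalized apart. In Ctr cortex the median level was 182 CPM per kb for *Mt3*, 138 for *Mt1* and 66.8 for *Mt2*. After SD it was 195, 180 and 106, so the order was kept while *Mt1* and *Mt3* came closer. In liver *Mt1* stood at 51.8 CPM per kb in Ctr and 102 after SD, and *Mt2* at 18.4 and 67.6.

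All 3 members were higher after SD in cortex. Mean *Mt2* rose by 0.67 on the log2 scale, 1.59-fold, *Mt1* by 0.37, 1.30-fold, and *Mt3* by 0.13, 1.10-fold. Every one of these passed the test (limma, Benjamini-Hochberg adjusted p over all genes). So did 68.4% of all genes in cortex, and 33.0% of all genes passed upward. Passing the test thus says little by itself, and the sizes matter more. In bulk RNA, more cells of a type and more RNA per cell cannot be told apart.

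*Mt1* in Ctr cortex ranged from 5.92 (BXD85) through a median of 6.22 to 6.54 log2 CPM (BXD56). After SD it ranged from 6.15 (BXD48) through 6.60 to 7.09 (BXD95). The mean level was 6.22 ± 0.14 in Ctr and 6.59 ± 0.22 in SD (SD over pools, n = 39). The ranges overlapped, with 24 of 39 SD pools above every Ctr pool. The difference was 0.37 ± 0.04 (SE) with an adjusted p of 6.72e-13 (limma). *Mt1* was higher in 36 of 39 pools and lower in BXD89, BXD56 and BXD67, where the log2 differences were -0.07, -0.06 and -0.03. The largest difference was 0.80, in BXD95.

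*Mt2* in Ctr cortex ranged from 4.56 (BXD85) through 5.22 to 6.00 log2 CPM (BXD56), and after SD from 5.33 (BXD48) through 5.88 to 6.64 (BXD95). The lowest and the highest pool of *Mt2* were thus those of *Mt1* in each condition. The means were 5.22 ± 0.24 and 5.89 ± 0.29 (SD over pools, n = 39), and 12 of 39 SD pools lay above every Ctr pool. The difference was 0.67 ± 0.06 (SE) with an adjusted p of 5.65e-17 (limma). It was above 0 in 37 of 39 pools, with a range from -0.26 in BXD56 to 1.26 in DB-F1. The signed difference of *Mt2* lay above that of *Mt1* in 37 of 39 pools, by 0.29 ± 0.16 on average (SD over pools).

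*Mt3* moved the least. Its Ctr levels ranged from 6.38 (BXD79) through 6.62 to 6.99 log2 CPM (BXD90) and its SD levels from 6.54 (BXD89) through 6.71 to 7.07 (BXD66), with 1 SD pool above every Ctr pool. The difference was 0.13 ± 0.03 (SE) with an adjusted p of 2.60e-05 (limma). It was above 0 in 33 of 39 pools and below 0 in BXD90, BXD67, BXD89, BXD48, BXD81 and BXD83. The signed difference of *Mt3* lay below that of *Mt1* in 37 of 39 pools.

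Liver showed larger and more variable changes. Mean *Mt2* rose by 1.40 on the log2 scale, 2.63-fold, and mean *Mt1* by 0.81, 1.76-fold. Both passed the test, as did 44.2% of all genes in liver, and 21.5% of all genes passed upward. Ordered by the size of the rise, *Mt2* was number 27 and *Mt1* number 118 of 14107 genes in liver. In cortex they were number 275 and number 798 of 14896, and *Mt3* was number 3316.

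*Mt1* in Ctr liver ranged from 3.63 (BXD55) through 4.81 to 6.15 log2 CPM (BXD71), and after SD from 4.33 (BXD45) through 5.79 to 6.57 (BXD70). Only 6 of 39 SD pools lay above every Ctr pool. The difference was 0.81 ± 0.14 (SE) with an adjusted p of 5.31e-07 (limma). It ranged from -1.004 in BXD51 to 2.27 in DB-F1, and 19 pools more than doubled. *Mt1* was lower after SD in 7 pools, BXD51, BXD56, BXD89, BXD45, BXD67, BXD98 and BXD71.

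*Mt2* in Ctr liver ranged from 1.60 (BD-F1) through 3.36 to 5.84 log2 CPM (BXD71), an 18.9-fold range among mice that had slept. After SD it ranged from 2.89 (BXD45) through 5.23 to 6.23 (the second D2 pool), a 10.1-fold range, and 6 of 39 SD pools lay above every Ctr pool. The difference was 1.40 ± 0.23 (SE) with an adjusted p of 3.22e-07 (limma). *Mt2* was higher in 35 of 39 pools, more than doubled in 26 and rose more than 4-fold in 13. The lowest difference was -1.59, in BXD56, and the highest was 3.45, in BD-F1.

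**Figure D2:**
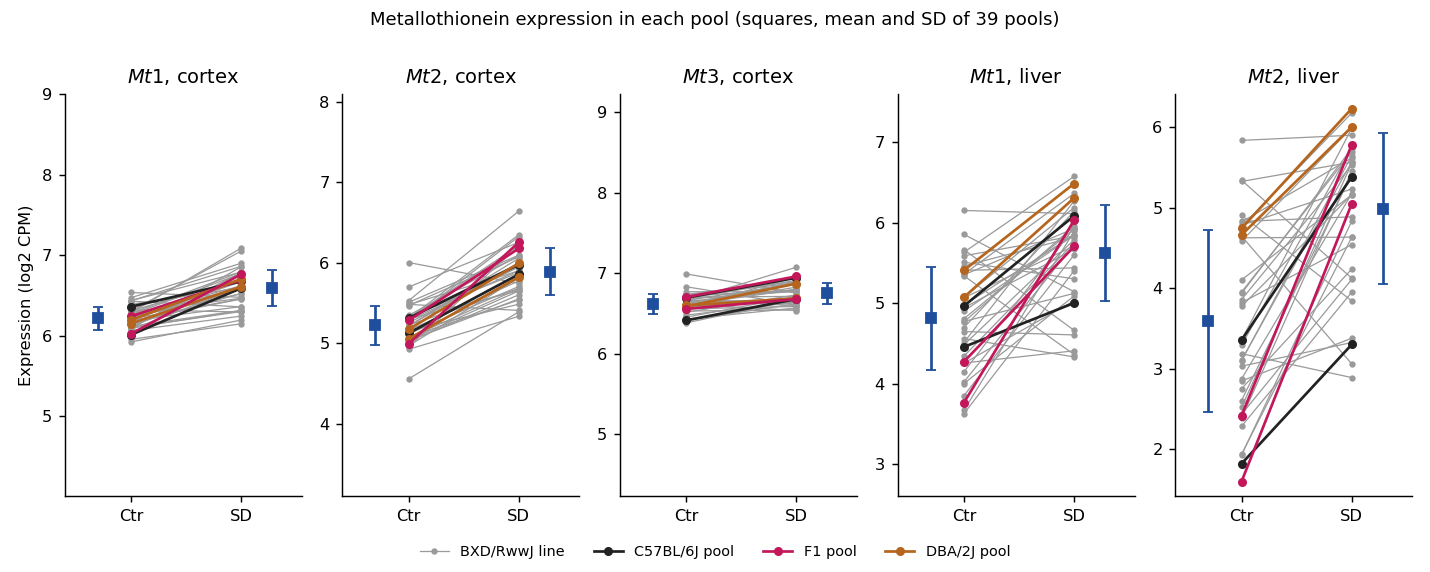
Level of each member in log2 CPM (vertical axis) in Ctr and SD, with 1 line for each of the 39 pools and squares for the mean and SD over pools. All panels span 5 log2 units, so the fan of lines is narrow for *Mt3* in cortex, where the differences run from -0.24 to 0.42, and widest for *Mt2* in liver, where they run from -1.59 to 3.45.

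The rise was larger in liver than in cortex. The log2 difference in liver minus that in cortex was 0.44 ± 0.11 (SE) for *Mt1* with an adjusted p of 5.98e-04 and 0.73 ± 0.17 for *Mt2* with an adjusted p of 3.29e-04 (limma on 1 value per pool, 39 pools). The rise in liver was the larger in 27 of 39 pools for *Mt1* and in 28 for *Mt2*. Of the 12695 genes listed in both tissues, 57.7% passed this test, 28.1% with the higher value in liver. The reads per base given above differed between the tissues as well, and their part in this difference was not tested.

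Lines with a larger rise in cortex tended to have a larger rise in liver. Over 37 genotypes, with the pools of each parental strain averaged, the difference in cortex and that in liver correlated with Pearson's r = 0.66 and Spearman's rho = 0.60 for *Mt1* and with r = 0.71 and rho = 0.61 for *Mt2*. The Benjamini-Hochberg adjusted permutation p for r was 6.80e-05 and 3.78e-05 over 34 relations. The permutation took genotypes as independent, though the F1 pools are reciprocal crosses of the same parental strains. BXD48a, BXD65a and BXD73b are sublines named after BXD48, BXD65 and BXD73, and the correlations were not repeated without them. In the 33 BXD/RwwJ lines alone r was 0.62 for *Mt1* and 0.67 for *Mt2*. Without BXD56 and BXD89, the genotypes farthest from the median in cortex, r of *Mt2* was 0.57 with a permutation p of 3.70e-04. Without BXD89 and BXD95, r of *Mt1* was 0.64. *Mt1* was higher after SD in both tissues in 32 of 39 pools and lower in both in 3, and *Mt2* was higher in both in 35 and lower in both in BXD56 and BXD89. No pool had either gene lower in cortex and higher in liver. The study took cortex and liver from the same set of mice, so a state of those animals can enter both tissues. With 1 pool per line and condition, it cannot be told apart from the line.

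**Figure D3:**
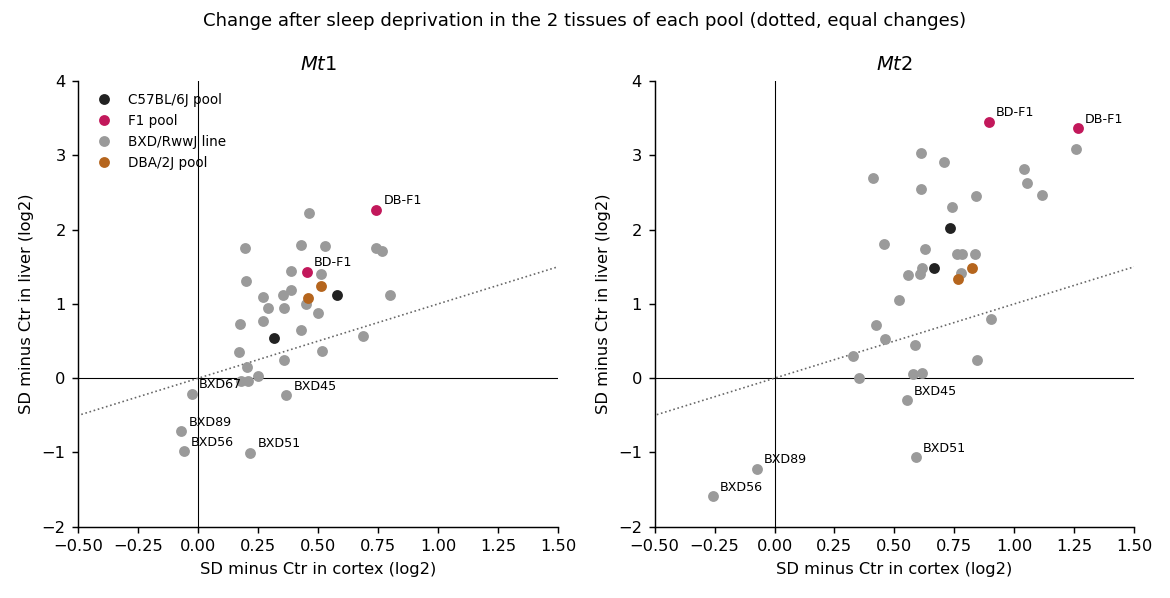
Log2 difference SD minus Ctr in cortex (horizontal axis) and in liver (vertical axis) for *Mt1* and *Mt2*, 1 point for each of the 39 pools, with the dotted line marking equal changes. BXD56 and BXD89 lie below 0 in both tissues for both genes, and the F1 pools lie at the top for *Mt2*, at 3.45 and 3.37 in liver.

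Pools in which *Mt2* or *Mt1* was lower after SD differed in where their Ctr and SD levels stood. BXD56 held the highest Ctr *Mt2* of all cortex pools, 6.00 log2 CPM, and the 11th highest in liver, 4.65, while its SD liver, at 3.06, was second lowest. BXD89 held the second highest Ctr *Mt2* in liver, 5.34, and the 5th highest in cortex, 5.48, and its SD cortex pool, at 5.41, was number 37 of 39. BXD51 was among the 4 highest Ctr livers with 4.91 and fell to 3.84, number 34. BXD45, in contrast, had a Ctr liver level of 3.19 near the middle and the lowest SD level of all. Each of these lines had 1 pool per condition and tissue. They were chosen after their values were seen and form no group.

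Repeat pools existed for the parental strains only, made at the start and the end of the data collection. In Ctr liver *Mt2* was 1.82 and 3.36 log2 CPM in the B6 pools and 4.66 and 4.74 in the D2 pools. After SD it was 3.30 and 5.38 in B6 and 6.00 and 6.23 in D2. The D2 pools were the higher in each condition, which was not tested here. An exact permutation test of 2 pools against 2 cannot give a p below 0.33. The B6 pools differed from each other by 1.54 in Ctr and 2.08 in SD, more than the SD over the 33 BXD/RwwJ lines of 1.08 and 0.92. The D2 pools differed by 0.08 and 0.23. The log2 differences SD minus Ctr were 1.48 and 2.03 in B6 and 1.34 and 1.49 in D2.

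The F1 pools had low Ctr and not low SD livers. *Mt2* in Ctr liver was 1.60 in BD-F1 and 2.42 in DB-F1, where the median of the BXD/RwwJ lines was 3.77, and after SD it was 5.05 and 5.78, where their median was 5.18. The *Mt2* differences of 3.45 and 3.37 exceeded those of all 33 lines, whose highest was 3.08 in BXD79. For *Mt1* in liver the difference was 1.43 in BD-F1, within the range of the 33 lines. In DB-F1 it was 2.27, against a highest line value of 2.23 in BXD49. The Ctr liver values of the F1 pools rest on 20 *Mt2* reads in BD-F1 and 24 in DB-F1. The DB-F1 library was the Ctr liver library with the fewest counted reads, 5034166. In cortex the differences of *Mt2* in the F1 pools were 0.89 and 1.26. Without parental and F1 pools, the change of *Mt2* in liver was 1.25 and that of *Mt1* 0.73.

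The spread over lines was itself large for genes of this level. In Ctr liver *Mt2* had a SD of 1.13 over pools, and 26 of 1209 genes with a mean level within 0.5 log2 units had a larger one, against a median of 0.32 among them. For the difference SD minus Ctr, 3 of those 1209 genes varied more than *Mt2* and 7 of 1779 varied more than *Mt1*. In cortex 35 of 2511 genes of like level varied more than *Mt2* in the difference, 57 of 2170 more than *Mt1* and 200 of 1810 more than *Mt3*.

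*Mt1* and *Mt2* went together. In liver the correlation over genotypes was r = 0.95 for Ctr levels, 0.96 for SD levels and 0.95 for differences (rho 0.95, 0.96 and 0.94), and in cortex it was 0.80, 0.94 and 0.87 (rho 0.75, 0.95 and 0.79). Each had a permutation p of 1e-05, the smallest that 100000 resamples can give, and an adjusted p of 3.78e-05. Both genes are read from the same libraries, so error of a library enters both. The difference of *Mt3* correlated with that of *Mt1* at r = 0.58 (rho 0.60, adjusted permutation p = 4.53e-04), while with that of *Mt2* r was 0.32 (rho 0.31, adjusted permutation p = 0.0785). In Ctr cortex *Mt3* and *Mt2* gave r = 0.19 and *Mt3* and *Mt1* 0.31, with adjusted permutation p of 0.319 and 0.0839. After SD the levels of *Mt3* correlated with those of *Mt1* at r = 0.57 (rho 0.53, adjusted permutation p = 5.31e-04) and with those of *Mt2* at r = 0.55 (rho 0.54, adjusted permutation p = 9.80e-04). Differences between these correlations were not tested.

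Ctr and SD levels of the same lines were also compared. In cortex r was 0.40 for *Mt1* (rho 0.38, adjusted permutation p = 0.0246), 0.39 for *Mt2* (rho 0.43, 0.0271) and 0.28 for *Mt3* (rho 0.32, 0.119). In liver it was 0.10 for *Mt1* (rho 0.15, adjusted permutation p = 0.605) and 0.18 for *Mt2* (rho 0.24, 0.341). The difference between tissues in these correlations was not tested.

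Among the genes compared by name, the change of *Mt1* and *Mt2* followed that of *Fkbp5*, a co-chaperone of the glucocorticoid receptor and a target of that receptor. In cortex r was 0.84 for *Mt1* (rho 0.77) and 0.80 for *Mt2* (rho 0.78), each with an adjusted permutation p of 3.78e-05. Without BXD89 and BXD95 these r were 0.80 and 0.77. In liver r was 0.59 for *Mt1* (rho 0.59, adjusted permutation p = 2.67e-04) and 0.64 for *Mt2* (rho 0.63, 8.50e-05). It was 0.66 and 0.69 without BXD101 and BXD95, and 0.53 and 0.60 in the 33 BXD/RwwJ lines alone. *Mt3* and *Fkbp5* gave r = 0.40 in cortex (rho 0.36, adjusted permutation p = 0.0266). In BXD89, where *Mt1* and *Mt2* were lower after SD in both tissues, the *Fkbp5* difference was -0.11 in cortex, the lowest of all pools, and 0.41 in liver. In BXD56, where both were lower as well, it was 0.34 in cortex and 0.79 in liver. In BXD67, where *Mt1* was lower in both tissues, the *Fkbp5* difference was 0.30 in cortex and 1.58 in liver.

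*Tsc22d3*, which encodes the glucocorticoid-induced leucine zipper protein, gave r = 0.65 with *Mt1* and 0.59 with *Mt2* in cortex (rho 0.68 and 0.70, adjusted permutation p = 8.50e-05 and 2.62e-04). In liver r was 0.31 and 0.34 (rho 0.33 and 0.31), with adjusted permutation p of 0.0863 and 0.0582. The *Tsc22d3* difference was 0.20 in cortex and 0.08 in liver in BXD89, 1.12 and 0.94 in BXD56, and 0.98 and 0.13 in BXD67. *Slc30a1*, the zinc exporter of the plasma membrane and like *Mt1* a target of MTF1, gave r = -0.04 with *Mt1* and 0.11 with *Mt2* in cortex and 0.03 and 0.10 in liver, with adjusted permutation p from 0.589 to 0.882. With *Mt3* it gave r = -0.38 in cortex (rho -0.28, adjusted permutation p = 0.0327). Leaving out BXD101 and BXD65a gave r = -0.28 with a permutation p of 0.0990, so the relation was weaker without those lines.

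**Figure D4:**
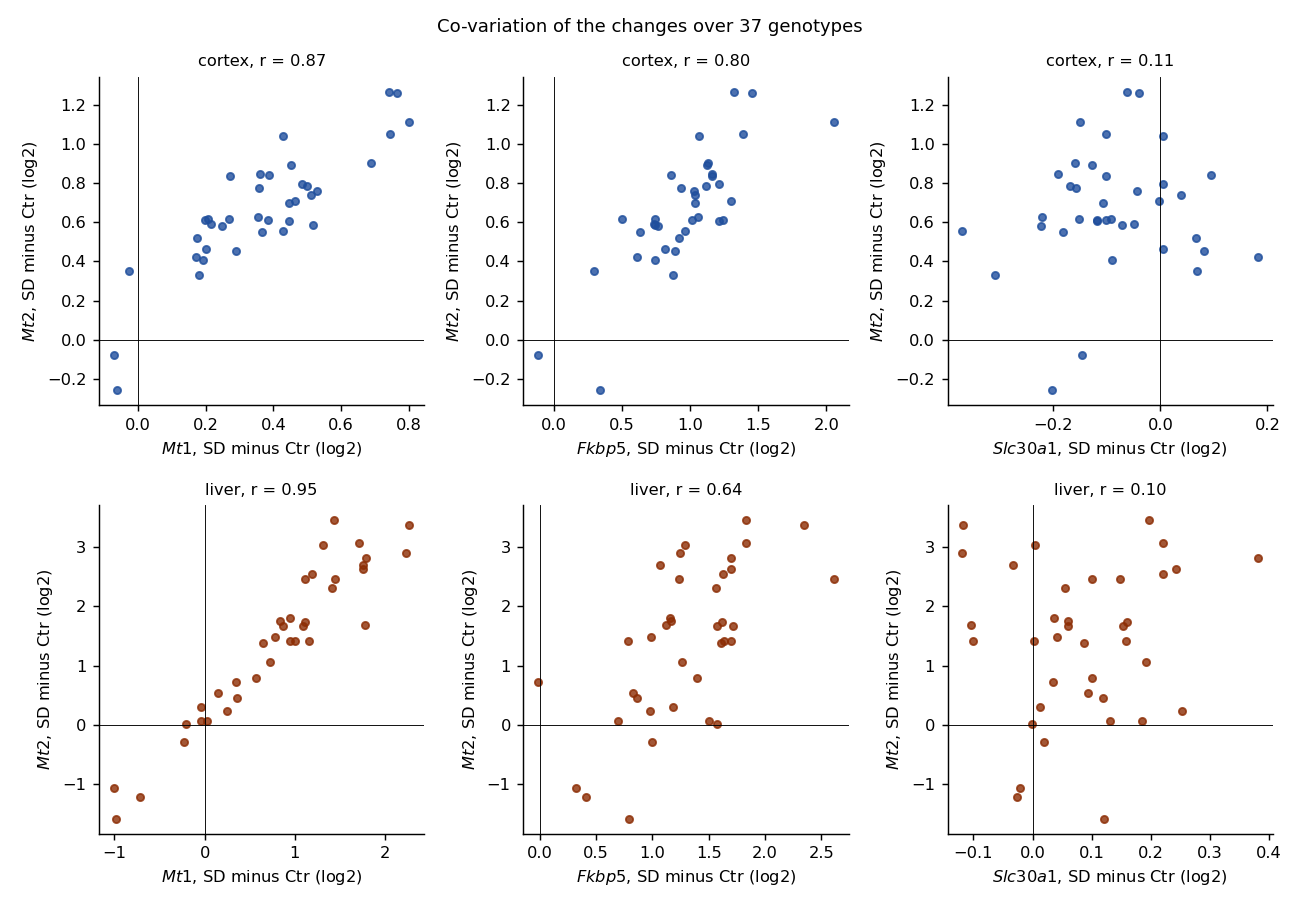
Log2 difference SD minus Ctr of *Mt2* (vertical axes) against that of *Mt1*, *Fkbp5* and *Slc30a1* (horizontal axes), 1 point for each of 37 genotypes, cortex above and liver below. The points follow a line with *Mt1* and *Fkbp5* (r of 0.87 and 0.80 in cortex, 0.95 and 0.64 in liver) and scatter with *Slc30a1* (r of 0.11 and 0.10).

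Over all genes, *Mt1* and *Mt2* were each other's closest match in difference and in Ctr level in both tissues. After *Mt2*, the differences most like that of *Mt1* in cortex were those of *Sult1a1*, a sulfotransferase (r = 0.87), and *Cmtm3* (r = 0.84). For *Mt2* they were those of *Fkbp5* (r = 0.80) and *Wipf3* (r = 0.80). In liver *Fbxo31*, a subunit of a ubiquitin ligase, and *Sorbs3*, an adaptor of the cytoskeleton, came next for both, with r of 0.85 and 0.79 for *Mt1* and 0.81 and 0.78 for *Mt2*. *Sult1a1* rose by 0.84 in cortex and *Fbxo31* by 0.81 in liver (limma adjusted p 4.75e-17 and 7.33e-24).

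The Ctr level of *Mt1* in cortex was most like that of *Mt2*, *Fkbp5* (r = 0.67) and *Gadd45a*, a gene induced by stress and DNA damage (r = 0.65), and that of *Mt2* most like *Mt1*, *Gadd45a* (r = 0.69) and *Ppp1r3c*, a glycogen-targeting subunit of a phosphatase (r = 0.68). In Ctr liver *Lcn2*, an iron-scavenging acute-phase protein, was among the closest to both (r = 0.65 with *Mt1* and 0.61 with *Mt2*), beside *Abcd4* for *Mt1* (r = 0.67) and *Fn3k* for *Mt2* (r = 0.61). *Mt3* had other neighbours. Its difference was most like those of *Rundc3a* (r = 0.80) and *Dynlrb1*, a dynein light chain (r = 0.80). Its Ctr level was most like those of *Dynlrb1* (r = 0.82) and of *Uqcrq* and *Ndufa7*, subunits of the respiratory chain (r = 0.79 and 0.78). Among the differences most like that of *Mt1* in cortex, *Mt3* was number 86. These correlations were the highest of a search over all genes of 37 genotypes and are given as a description.

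Genes of zinc handling moved in both directions, and most by less than *Mt2*. *Mtf1* rose by 0.28 ± 0.02 (SE) in cortex, in 39 of 39 pools, and by 0.35 ± 0.04 in liver, in 37 of 39 (limma adjusted p 1.26e-22 and 4.10e-13). *Slc30a1* fell by 0.09 in cortex (adjusted p 2.32e-04, limma) and rose by 0.08 in liver (0.00267). *Gclc*, the catalytic subunit of the first enzyme of glutathione synthesis and another target of MTF1, fell by 0.11 in cortex and by 0.17 in liver. Of the 5 listed genes of MTF1 and its targets, 2 rose and 3 fell in cortex and 2 rose and 1 fell in liver. Their medians were -0.06 and 0.08, against -0.01 and -0.0015 over all genes. Over all genes 33.0% rose and 35.4% fell in cortex, and 21.5% rose and 22.6% fell in liver. Counts among 5 genes are too few to set apart from these shares. The risers in cortex were *Mtf1* itself and *Slc39a10* (0.19), while *Slc30a1*, *Gclc* and *Sepw1* (-0.06) fell.

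The shares over all genes were 33.0% up and 35.4% down in cortex and 21.5% up and 22.6% down in liver, and several of the following counts lie near them. Of 8 zinc exporters listed in cortex, 1 rose and 4 fell. The riser was *Slc30a3*, which loads zinc into synaptic vesicles (0.10), and the largest fall was that of *Slc30a10* (-0.29). In liver 4 of 8 rose and 2 fell, led by *Slc30a3* (0.85), whose mean level was low at 0.42 log2 CPM in Ctr, and *Slc30a5* (0.25). Of 12 zinc importers in cortex 6 rose and 5 fell, with *Slc39a2* at 0.82 and *Slc39a8* at -0.46 as the extremes. Of 13 in liver 3 rose and 4 fell, and the risers included *Slc39a6* (0.65) and *Slc39a14*, an importer that the acute-phase response induces (0.33, higher in 39 of 39 pools). Of 12 copper genes 2 rose and 3 fell in cortex and 2 rose and 1 fell in liver. *Atp7a*, a copper-exporting ATPase, rose by 0.41 in cortex and by 0.19 in liver, and *Atp7b*, its hepatic relative, fell by 0.39 in liver. Medians of these 3 lists lay between -0.05 and 0.05.

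Genes of the glucocorticoid response rose widely. In cortex 10 of 11 rose and 1 fell, with a median of 0.62, and in liver 8 of 12 rose and 1 fell, with a median of 0.39. Over all genes 33.0% rose and 35.4% fell in cortex, with a median of -0.01, and 21.5% rose and 22.6% fell in liver, with a median of -0.0015. *Fkbp5* rose by 0.97 ± 0.06 (SE) in cortex and 1.30 ± 0.08 in liver, in 38 of 39 pools each (limma adjusted p 1.45e-24 and 3.60e-26). *Tsc22d3* rose by 1.00 in cortex and 0.60 in liver, *Cdkn1a*, a cell cycle inhibitor, by 1.64 in cortex, and *Zbtb16*, a zinc finger factor, by 2.08 in liver. *Pdk4*, which holds back glucose oxidation, fell by 0.95 in liver. *Nr3c1*, the receptor itself, fell by 0.11 in cortex and stood at -0.06 in liver (adjusted p 0.101, limma).

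Of the other known inducers, 2 of 4 acute-phase genes rose in cortex and 6 of 14 in liver, with none falling. In liver *Il6ra*, the receptor of interleukin 6, rose by 0.65 and *Lcn2* by 0.63 (limma adjusted p 3.93e-12 and 0.0181). Genes of the oxidative stress response were split, with 6 rising and 6 falling of 12 in cortex and 1 rising and 5 falling of 11 in liver. The shares over all genes were 33.0% up and 35.4% down in cortex and 21.5% up and 22.6% down in liver. *Srxn1*, a reductase under NRF2, rose by 0.19 in cortex and fell by 0.31 in liver, and *Nqo1*, another target, fell by 0.27 and 0.38.

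**Figure D5:**
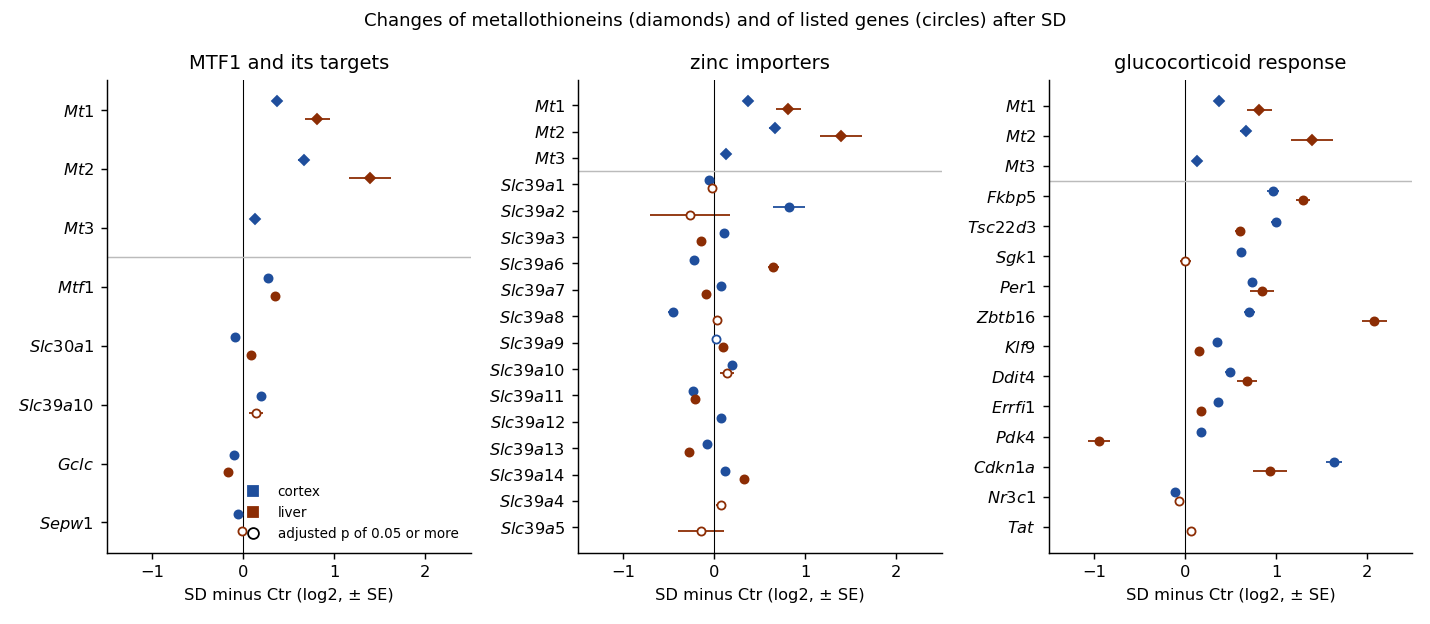
Log2 difference SD minus Ctr with its SE (horizontal axes) of the metallothioneins (diamonds, above the grey line) and of MTF1 and its targets, the zinc importers and the genes of the glucocorticoid response (circles, open where the adjusted p was 0.05 or more), in cortex (blue) and liver (red). *Mt1* and *Mt2* exceed each gene of MTF1 and its targets in both tissues, while *Fkbp5*, at 0.97 and 1.30, and *Cdkn1a*, at 1.64 in cortex, lie among or beyond them.

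Markers of cell types were read because the members differ between cells. In cortex 5 of 10 astrocyte markers rose and none fell, with a median of 0.07, led by *Gjb6*, a gap junction gene of astrocytes (0.70, higher in 39 of 39 pools). Their summed level ranged from 5266 to 7894 CPM in Ctr and from 5894 to 8265 in SD. Over all cortex genes 33.0% rose and 35.4% fell. Neuron markers were near these shares with 3 up and 3 down of 9, with summed levels of 8584 to 9638 CPM in Ctr and 8400 to 9346 in SD. Oligodendrocyte markers were 1 up and 3 down of 6, endothelial markers 2 up and 3 down of 6, microglia and macrophage markers 2 up and 1 down of 6. Of 6 choroid plexus markers 4 were listed and none changed, though their summed level ranged from 8.04 to 235 CPM in Ctr and from 6.65 to 406 in SD. In liver, where 21.5% of all genes rose and 22.6% fell, no hepatocyte or Kupffer cell marker changed of 8 and 6, with summed hepatocyte levels of 3947 to 6589 CPM in Ctr and 4203 to 5761 in SD. Cholangiocyte markers were 0 up and 1 down of 6, and of exocrine pancreas and erythroid markers 2 of 6 and 1 of 5 were listed in liver and none changed. The part of cell makeup in the changes of the metallothioneins was not tested.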

How the data were processed

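RNA was pooled by the authors per line, condition and tissue, and stranded mRNA libraries were read in single-end reads of 100 bases. Per the labels and the study's methods, STAR served for alignment (mm9) and HTSeq for strand-specific counting over RefSeq gene models, genes of low mean count were dropped, and edgeR's TMM scaling gave the deposited log2 CPM, the unit of all 4 files. Undoing the scaling gave whole reads for 100% of values (within 0.02 of a read), which served for depth, reads per base and voom.

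Groups came from the labels. SD and Ctr were compared with limma 3.58.1 in R 4.3.3 (lmFit, eBayes with a variance trend, no block), with Benjamini-Hochberg adjustment over all genes of a tissue and a threshold of 0.05, after a test on simulated data. Differences between tissues were fitted on 1 value per pool. Pools of different lines served as replicates, so p-values measure the spread between lines and libraries together. Libraries were checked, and none were identical. Same-line Ctr and SD pools deviated together, since all 39 lines correlated above 0.1 in both tissues (lowest 0.299 in cortex, 0.169 in liver). Ctr and SD pools of a line share its genotype, and the study also paired SD and Ctr mice within its cohorts. The parts of line and cohort in this pairing cannot be told apart here. A fit with the line as a block was an alternative.

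Correlations used 37 genotypes and two-sided permutation tests with 100000 resamples (numpy 2.4.6), adjusted over 34 relations. The labels name no sequencing batch or cohort. Members, lists and tests were chosen with earlier results of these data known. Named by rule were the 3 members, up to 2 genes a direction, list and tissue with the largest changes past the threshold, *Mtf1*, *Slc30a1*, *Fkbp5*, *Tsc22d3* and *Nr3c1*, and the 3 genes most like each member. Not all of these are printed. Exonic lengths were those of GENCODE vM1, with a length found for 93.3% of cortex and 93.7% of liver genes. Other alternatives were eBayes without a trend, libraries centred on their medians, quantile normalization, a minimum mean log2 CPM of 0, a prior count of 5 reads, voom, and other choices of pools.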

Additional observations from a re-analysis of the deposited data

Results flagged for a closer look

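The difference between the tissues in the change after SD is given for *Mt1* and *Mt2* because its own test passed the threshold. The change in liver minus that in cortex was 0.44 on the log2 scale for *Mt1* (adjusted p = 5.98e-04, limma, larger in liver in 27 of 39 pools) and 0.73 for *Mt2* (adjusted p = 3.29e-04, limma, larger in 28 of 39 pools). Over pools this difference ranged from -1.22 (BXD51) to 1.76 (BXD49) for *Mt1* and from -1.65 (BXD51) to 2.56 (BD-F1) for *Mt2*. With the tissues fitted without pairing, the adjusted p was 0.00744 and 0.00763. In 15 groups of the 4 BXD/TyJ pools, no pool stood apart by Dixon's criterion.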

How the results depend on the processing

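The 7 changes and tissue differences of the members kept their direction and stayed past the threshold in all 91 alternatives and in all 273 fits without 1 line or pool. In cortex the change lay between 0.34 and 0.38 for *Mt1*, 0.63 and 0.67 for *Mt2*, and 0.10 and 0.13 for *Mt3* over these alternatives. Without 1 line or pool it lay between 0.36 and 0.38, 0.65 and 0.69, and 0.12 and 0.14. In liver the alternatives gave 0.73 to 0.84 for *Mt1* and 1.24 to 1.44 for *Mt2*, and leaving out 1 line or pool gave 0.78 to 0.86 and 1.34 to 1.47. The tissue difference lay between 0.38 (33 BXD/RwwJ lines alone) and 0.48 for *Mt1* over the alternatives. For *Mt2* it lay between 0.56, with voom and the replicate block, and 0.77. The largest adjusted p of any alternative was 0.00803, for the tissue difference of *Mt1* in the 33 BXD/RwwJ lines alone. With the line as a replicate block, 11359 genes passed in cortex (10191 without it) and 7603 in liver (6229 without it), and the block changed no call of a member. The adjusted p of *Mt3* in cortex was then 9.76e-07. Without the pairing, 6067 genes differed between tissues, against 7324. Counts of genes stayed within 1.5 times in all alternatives.

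Of 170 alternative values of correlations 164 kept sign and side of the threshold. Between the Ctr levels of *Mt1* and *Mt3* in cortex, r was 0.37 with an adjusted permutation p of 0.0308 over 39 pools, and 0.37 with 0.0469 without BXD79, BXD85 and BXD101. On linear CPM, r between Ctr and SD levels of *Mt2* in cortex was 0.33 (adjusted permutation p = 0.0664), and r of *Tsc22d3* in liver was 0.45 with *Mt1* and 0.53 with *Mt2* (0.00923 and 0.00164). Without BXD79, BXD85 and BXD101, r of *Slc30a1* and *Mt1* in liver was -0.0258. The cause of these shifts was not tested. Of the other named genes, *Lcn2* in liver (0.50, adjusted p 0.0914, limma) and *C1qb* in cortex did not pass in the 33 lines alone, *Kdr* in liver did not pass without BXD70, and *Nr3c1* in liver passed with quantile normalization and with all 43 pools.

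Each line had 1 pool per condition and tissue, so a line's value has no error of its own. Liver reads per base were low, at most 0.909 for *Mt1* and 0.741 for *Mt2*, and narrow in range for *Alb*. The fold changes in liver are those of counted reads.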

Other observations

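The 4 BXD/TyJ lines, BXD05, BXD29, BXD29t and BXD32, entered none of the comparisons of SD with Ctr in 39 pools above, and were added only in the alternative with all 43 pools. *Mt1* and *Mt2* were higher after SD in 4 of 4 of these pools in both tissues. In cortex the log2 difference of *Mt1* ranged from 0.03 (BXD29t) to 0.63 (BXD32) and that of *Mt2* from 0.41 (BXD29t) to 1.01 (BXD32). In liver *Mt1* ranged from 0.34 (BXD29t) to 1.58 (BXD32) and *Mt2* from 1.17 (BXD05) to 2.27 (BXD32). *Mt3* in cortex was higher in 3 of 4, from -0.11 (BXD05) to 0.30 (BXD29). The Ctr pool of BXD05 held more *Mt3* (7.15 log2 CPM) and *Mt1* (6.63) than any of the 39 Ctr pools compared above.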
